A study of Mus musculus with 23 samples.

Results

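A group of 10 genes that make, sense and take up bile acids in the mouse liver was followed across hepatocyte deletion of Ctnnb1, which encodes beta-catenin, and across 12 weeks of dietary phenobarbital. They are Cyp7a1 and Cyp8b1 of the classic synthesis pathway, Cyp27a1 and Cyp7b1 of the alternative pathway, the bile acid receptor gene Nr1h4 and its target Nr0b2, and the uptake carriers Slc10a1, Slco1b2, Slco1a1 and Slco1a4. They were taken by gene symbol, through all probe sets that the array's annotation assigns to 1 gene alone. All 10 genes were found, with 20 such probe sets, among 18193 genes on the array, and all 10 passed the filter on low values that left 13826 genes for testing.

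Hepatocytes convert cholesterol to bile acids by a classic route, which begins with Cyp7a1, and by an alternative route, which begins with oxidation of the sterol side chain by Cyp27a1. Bile acids that return from the gut are taken back up from portal blood by a sodium-dependent carrier and by organic anion transporting polypeptides. When bile acids accumulate they activate FXR, the receptor encoded by Nr1h4, which induces the repressor SHP, encoded by Nr0b2, and SHP lowers transcription of Cyp7a1 and Cyp8b1. Beta-catenin carries the Wnt signal to the nucleus and maintains the gene programme of hepatocytes around the central vein, and phenobarbital activates the constitutive androstane receptor CAR.

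Liver RNA of male C3H mice was hybridised to 23 Affymetrix arrays, 1 per sample, in 4 groups. Knockout livers, in which Cre under the hepatocyte-specific albumin promoter removes the Ctnnb1 segment whose flanking loxP sites enclose exons 3 to 6, were profiled after 0.05% phenobarbital in the diet for 12 weeks (n = 7) and on a diet without it (n = 7). Wild-type livers were profiled after the same phenobarbital diet (n = 4) and without it (n = 5). The labels also name water as the control vehicle, and they give neither ages nor the Cre or loxP status of the wild-type mice. Nothing in them says that replicates were separate animals, so p-values measure only the spread between these samples. All values are log2 signals as deposited, so a difference of 1 is a doubling, and levels of different probe sets are not compared.

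Some facts of the whole series bear on every result. The 3 Ctnnb1 probe sets were not lower in knockout livers: on the brightest, levels spanned 12.08 to 12.37 in knockout phenobarbital arrays, 12.11 to 12.42 in knockout control arrays, 12.03 to 12.10 in wild-type phenobarbital arrays and 12.18 to 12.23 in wild-type control arrays. Where these probes lie relative to the deleted exons is not given in the sources used here, so they do not check the labels. All 8 perivenous hepatocyte markers, among them Glul, Axin2 and Cyp2e1, were lower in knockout livers without overlap, both with and without phenobarbital. The mean of 7 general hepatocyte markers lay between 12.82 and 13.24 on every array, and 0 of these 7 passed the test between genotypes in limma (0 and 2 at an unadjusted p under 0.05, without and with phenobarbital). Knockout control replicates 2, 6 and 7 stood apart, with array weights of 0.54, 0.324 and 0.21, the lowest of all 23, so results are also given without them.

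Between genotypes, all 10 genes had a lower mean in knockout livers, with and without phenobarbital. Without phenobarbital, 5 of the 10 passed the test as lower (Cyp7a1, Cyp27a1, Cyp7b1, Nr0b2 and Slco1b2) and 0 as higher, in limma with Benjamini-Hochberg adjustment over all 13826 genes and a threshold of 0.05. Over all genes tested, 10.1% were called lower and 25.0% were called in either direction. The median log2 difference of the 10 was -0.76, beside -0.0047 over all genes tested. With phenobarbital in both genotypes, 3 of the 10 passed as lower (Cyp27a1, Slco1b2 and Slco1a4) and 0 as higher, where 8.12% of all genes tested were lower and 20.0% were called in either direction. The median of the 10 was then -0.75, beside 0.0024 over all genes. These counts did not hold their order: without knockout control replicates 2, 6 and 7, 3 of the 10 were lower without phenobarbital (4.03% of all genes) and 7 with it (11.6% of all genes), and array weights also gave 3 (6.91%) and 7 (13.8%). The 7 were Cyp7a1, Cyp8b1, Cyp27a1, Slc10a1, Slco1b2, Slco1a1 and Slco1a4 in both settings. In the first setting no difference with phenobarbital changed, because the arrays left out enter only the estimate of the spread there. Its added calls thus show no larger difference between genotypes. Leaving out knockout control replicate 6 or 7 or wild-type control replicate 2 or 3 also took the count without phenobarbital to 3.

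Separation of single arrays gave a slightly different set. Without phenobarbital, every knockout array lay below every wild-type array for 4 of the 10 genes (Cyp27a1, Cyp7b1, Slco1b2 and Slco1a1), as did 3.65% of all genes tested. With phenobarbital this held for 5 (Cyp27a1, Slc10a1, Slco1b2, Slco1a1 and Slco1a4), against 7.38% of all genes. Slco1a1 and Slc10a1 separated without passing the test. The livers were bulk tissue, so fewer hepatocytes and less RNA per hepatocyte cannot be told apart.

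**Figure D1:**
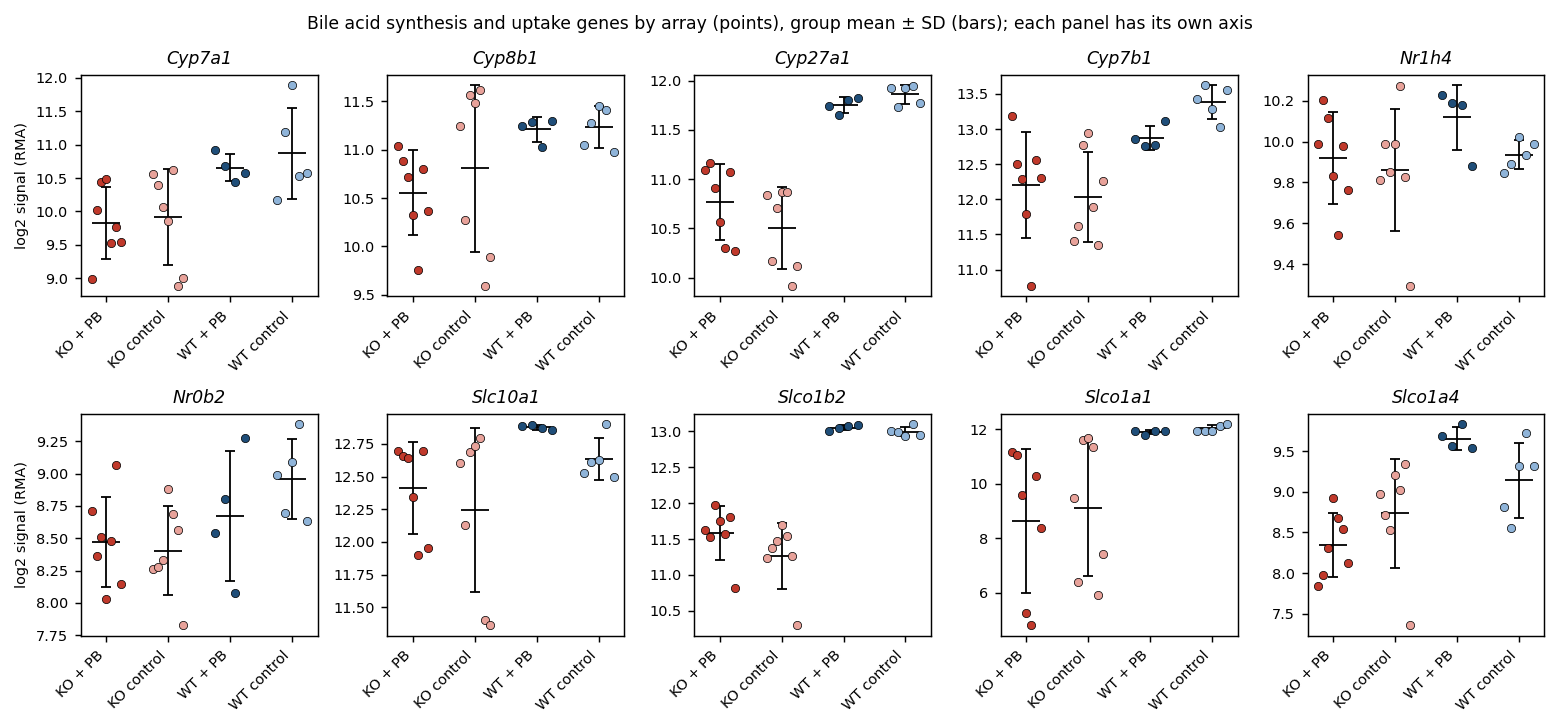
Log2 signal of each of the 10 genes on every array, with 1 panel and y axis per gene, 1 point per array, bars for the group mean and SD, and the 4 groups along the x axis (KO knockout, WT wild type, PB phenobarbital). The knockout points of Slco1b2 and Cyp27a1 lie below all wild-type points, and those of Slco1a1 spread from 4.81 to 11.66 while the wild-type points lie between 11.80 and 12.19.

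Cyp7a1, the rate-limiting enzyme of the classic pathway, was lower in knockout livers without phenobarbital. Its level spanned 8.99 to 10.49 with a median of 9.76 in knockout phenobarbital arrays, and 8.88 to 10.63 with a median of 10.07 in knockout control arrays. In wild-type phenobarbital arrays it was 10.91, 10.68, 10.44 and 10.57, and in wild-type control arrays 10.17, 11.18, 11.90, 10.54 and 10.57. Of the 7 knockout control arrays, 4 lay below the lowest wild-type control array, and of the 7 knockout phenobarbital arrays, 5 lay below the lowest wild-type phenobarbital array. The difference without phenobarbital was -0.96 (SE 0.33, adjusted p = 0.0372 in limma), and with phenobarbital it was -0.83 (SE 0.35, adjusted p = 0.0994). The call without phenobarbital ended with array weights (-0.80, adjusted p = 0.0572) and with only the compared groups fitted (adjusted p = 0.0952). It also ended without knockout control replicate 6 (-0.79, adjusted p = 0.082) or 7 (-0.81, adjusted p = 0.0783), without wild-type control replicate 2 (-0.88, adjusted p = 0.0855) or 3 (-0.70, adjusted p = 0.129), and without knockout control replicates 2, 6 and 7 together (-0.59, adjusted p = 0.252). In that last setting the difference with phenobarbital was unchanged at -0.83 and passed through the smaller spread alone (adjusted p = 0.0394). It passed in 4 of 35 alternative settings. The others were only the compared groups fitted (adjusted p = 0.0308), array weights (-0.82, adjusted p = 0.0238) and a variance weight per group, chosen after seeing the data (adjusted p = 0.0272). A second, dimmer Cyp7a1 probe set passed in both comparisons when every probe set was tested, with -1.25 (adjusted p = 0.00778) without phenobarbital and -1.09 (adjusted p = 0.0279) with it, where 22.6% and 18.3% of all 24089 probe sets tested were called.

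Cyp8b1, the sterol hydroxylase that directs synthesis towards cholic acid, did not pass the test. Its levels ran from 9.76 to 11.04 (median 10.72) in knockout phenobarbital arrays, from 9.59 to 11.61 (median 11.25) in knockout control arrays, from 11.02 to 11.30 in wild-type phenobarbital arrays and from 10.97 to 11.46 in wild-type control arrays. Knockout control arrays fell on both sides of the wild type: 3 lay below every wild-type control array (replicates 2, 6 and 7, at 10.28, 9.59 and 9.89) and 3 above all of them. The log2 difference between genotypes was -0.42 (SE 0.31, adjusted p = 0.32) without phenobarbital, and without those 3 replicates it turned to 0.24 (adjusted p = 0.457). With phenobarbital it was -0.66 (SE 0.33, adjusted p = 0.161), and 6 of 7 knockout arrays lay below all wild-type arrays. This difference passed in 4 of 35 alternative settings. In 1 of them, knockout control replicates 2, 6 and 7, which enter only the estimate of the spread there, were left out (adjusted p = 0.00899). The others were only the compared groups fitted (adjusted p = 0.0338), array weights (-0.60, adjusted p = 0.0345) and a variance weight per group, chosen after seeing the data (adjusted p = 0.038).

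Of the alternative pathway, Cyp27a1 was lower in knockout livers on both diets and Cyp7b1 without phenobarbital. Cyp27a1, the mitochondrial sterol side-chain hydroxylase, spanned 10.27 to 11.16 (median 10.91) in knockout phenobarbital arrays and 9.91 to 10.87 (median 10.71) in knockout control arrays. In wild-type phenobarbital arrays it was 11.74, 11.65, 11.80 and 11.82, and in wild-type control arrays 11.92, 11.74, 11.93, 11.95 and 11.77. No knockout array reached a wild-type array, and the spread was wider in knockout livers, with SDs of 0.38 with and 0.42 without phenobarbital, against 0.078 and 0.10 in wild-type livers. The log2 difference was -1.36 (SE 0.18, adjusted p = 1.61e-05) without phenobarbital, a level 2.57 times lower, and -0.99 (SE 0.19, adjusted p = 0.00108) with it, 1.98 times lower. The call held in all 35 alternative settings in both comparisons, and without knockout control replicates 2, 6 and 7 the first difference was -1.04 (adjusted p = 0.000144).

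Cyp7b1 hydroxylates the oxysterols that Cyp27a1 makes. Its levels were 10.77 to 13.18 (median 12.31) in knockout phenobarbital arrays, 11.35 to 12.94 (median 11.89) in knockout control arrays, 12.86, 12.76, 12.77 and 13.11 in wild-type phenobarbital arrays, and 13.42, 13.63, 13.28, 13.03 and 13.55 in wild-type control arrays. Without phenobarbital the genotypes did not overlap, while with it 1 knockout array, replicate 1 at 13.18, lay above all 4 wild-type arrays. The log2 difference without phenobarbital was -1.35 (SE 0.31, adjusted p = 0.00409), a level 2.55 times lower, and it passed in all 35 alternative settings, among them without knockout control replicates 2, 6 and 7 (-1.13, adjusted p = 0.0457). With phenobarbital it was -0.67 (SE 0.34, adjusted p = 0.161). The 2 differences were not shown to be unequal: their interaction was 0.67 (SE 0.46, adjusted p = 0.712). Of its 3 probe sets, 2 passed the filter, and both passed the test without phenobarbital.

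The 300-base promoter windows in the RefSeq table, build GRCm38.p6, cover 250 bases before and 50 bases from the annotated gene start, and 8 of the 10 genes have at least 1. The window of Cyp27a1 is shown because this gene was lower in both genotype comparisons. It lies at chr1:74713285-74713584 on the plus strand, and TCF/LEF words, the letters bound by the partners of beta-catenin, would be in capitals.
Cyp27a1: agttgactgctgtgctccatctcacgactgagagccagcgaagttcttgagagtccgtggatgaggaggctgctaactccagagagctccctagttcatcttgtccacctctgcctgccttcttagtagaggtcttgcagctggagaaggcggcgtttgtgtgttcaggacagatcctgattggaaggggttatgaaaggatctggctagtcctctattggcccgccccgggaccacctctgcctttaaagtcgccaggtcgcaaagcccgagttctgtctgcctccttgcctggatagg
The words searched, on both strands, were CTTTG followed by AA, AT, TA or TT, and this window holds none of them.

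**Figure D2:**
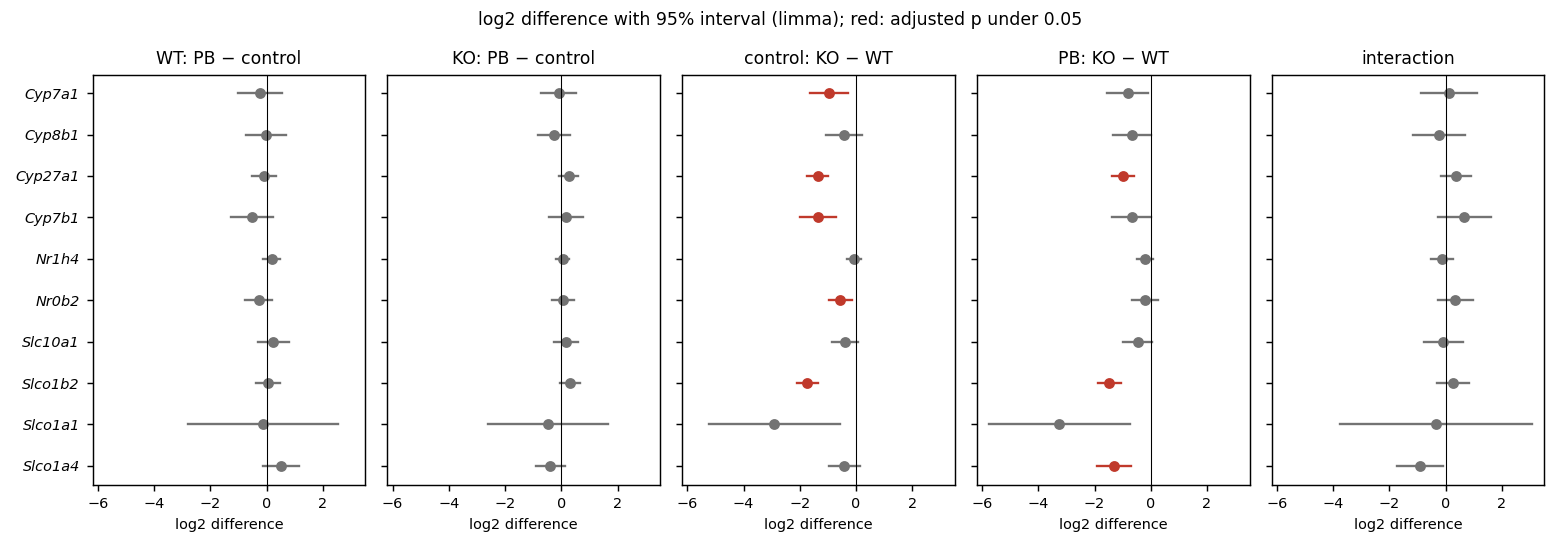
Log2 difference between groups for each of the 10 genes in the 4 pairwise comparisons and the interaction, 1 panel each (KO knockout, WT wild type, PB phenobarbital), with points for the estimate and bars for its 95% confidence interval from limma, red where the adjusted p was under 0.05. Points of both phenobarbital comparisons lie on both sides of 0, those of both genotype comparisons lie below 0, and the intervals of Slco1a1 are the widest, down to -5.75.

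In the FXR axis, the receptor gene passed in neither genotype comparison, and its target Nr0b2 passed without phenobarbital by a narrow margin. Nr1h4 was 9.54 to 10.20 (median 9.98) in knockout phenobarbital arrays, 9.29 to 10.27 (median 9.85) in knockout control arrays, 9.88 to 10.23 in wild-type phenobarbital arrays and 9.85 to 10.02 in wild-type control arrays. Its groups overlapped everywhere, and its log2 difference between genotypes was -0.075 (95% confidence interval -0.33 to 0.18) without phenobarbital and -0.20 (-0.48 to 0.075) with it. The first of these turned to 0.044 without knockout control replicates 2, 6 and 7, and to 0.019 without replicate 7 alone.

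Nr0b2 spanned 8.03 to 9.07 (median 8.48) in knockout phenobarbital arrays and 7.83 to 8.88 (median 8.33) in knockout control arrays. It was 8.54, 8.80, 8.08 and 9.28 in wild-type phenobarbital arrays, and 8.99, 8.70, 9.09, 9.38 and 8.63 in wild-type control arrays. Without phenobarbital, 5 of 7 knockout arrays lay below all wild-type arrays, and the log2 difference was -0.55 (SE 0.20, adjusted p = 0.0497), just inside the threshold. That call was lost in 25 of 35 alternative settings, among them leaving out any 1 of knockout control replicates 1, 2, 3, 6 and 7 (adjusted p = 0.0774, 0.0822, 0.0647, 0.0599 and 0.104), wild-type control replicates 1 to 4 (0.0828, 0.0519, 0.10 and 0.141), knockout phenobarbital replicates 1, 2, 3, 5 and 7 (0.0537, 0.0552, 0.0569, 0.0552 and 0.051) or wild-type phenobarbital replicates 1 and 2 (0.0569 and 0.0567). Over the 35 settings its adjusted p ran from 0.0253 to 0.263 and its difference from -0.64 to -0.42. With phenobarbital the difference was -0.20 (SE 0.22, adjusted p = 0.538), and the 4 wild-type arrays themselves differed 2.3-fold.

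The repressor and its targets were not shown to move oppositely between knockout livers. In 10 relations between Nr0b2, Nr1h4, Cyp7a1, Cyp8b1 and Slc10a1, each over the 7 arrays of 1 knockout group, none passed an exact permutation test, and the lowest Benjamini-Hochberg adjusted p was 0.433 for Pearson's r and 0.347 for Spearman's rho. Nr0b2 against Cyp7a1 gave r = -0.395 (exact permutation p = 0.395, rho = -0.429, p = 0.354) in knockout phenobarbital livers and r = 0.248 (p = 0.562, rho = 0.0357, p = 0.963) in knockout control livers, with r = -0.28 and -0.273 after leaving out the 2 arrays farthest from the median. Nr1h4 against Nr0b2 gave r = 0.802 (exact permutation p = 0.0548, rho = 0.679, p = 0.11) in knockout control livers and 0.398 without the 2 farthest arrays. Cyp7a1 against Cyp8b1 gave r = 0.746 (exact permutation p = 0.0865, rho = 0.714, p = 0.0881) there, and -0.207 without the 2 farthest, so that relation rests on those arrays.

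Among the uptake carriers, Slco1b2 was lower in knockout livers on both diets. This organic anion transporter of the sinusoidal membrane takes up bile acids without sodium. It spanned 10.81 to 11.97 (median 11.63) in knockout phenobarbital arrays and 10.30 to 11.69 (median 11.37) in knockout control arrays, while wild-type phenobarbital arrays had 13.00, 13.05, 13.08 and 13.08 and wild-type control arrays 13.00, 12.99, 12.94, 13.10 and 12.96. The 9 wild-type arrays lay within a narrow band, and no knockout array reached it. The log2 difference was -1.73 (SE 0.18, adjusted p = 9.98e-07) without phenobarbital, a level 3.32 times lower, and -1.47 (SE 0.20, adjusted p = 1.99e-05) with it, 2.77 times lower. Both calls held in all 35 alternative settings, and without knockout control replicates 2, 6 and 7 the first difference was -1.51 (adjusted p = 1.7e-06). Of its 5 probe sets, 3 passed the filter and all 3 passed the test in both comparisons, with log2 differences from -2.16 to -1.72 without phenobarbital and from -1.84 to -1.47 with it.

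Slco1a1, a carrier of bile acids and steroid conjugates that is male-predominant in mouse liver, had the widest spread of the 10. Knockout phenobarbital replicates 1 to 7 had 11.17, 11.04, 9.58, 5.28, 4.81, 10.27 and 8.39, and knockout control replicates 1 to 7 had 9.46, 6.41, 11.59, 11.66, 11.35, 5.94 and 7.41. Wild-type phenobarbital arrays had 11.94, 11.80, 11.92 and 11.92, and wild-type control arrays 11.93, 11.95, 11.95, 12.12 and 12.19. The 7 knockout phenobarbital livers thus covered an 82.2-fold range and the 7 knockout control livers a 53.0-fold range, against 1.11-fold and 1.20-fold in wild type. The lowest Slco1a1 value, 4.81, was near the arrays' 40th percentile (4.52 to 4.60), where robust multi-array averaging shrinks differences. Its SD of 2.64 with phenobarbital ranked 4 of 13826 genes within knockout phenobarbital arrays, and its SD of 2.52 ranked 9 within knockout control arrays, while in wild-type livers it was 0.066 and 0.12. Every knockout array was below every wild-type array of the same diet, yet the log2 differences of -3.25 (SE 1.20, adjusted p = 0.06) with phenobarbital and -2.91 (SE 1.12, adjusted p = 0.0613) without it missed the threshold.

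Which side of the threshold Slco1a1 fell on depended on single arrays and, with phenobarbital, on how arrays were weighted. Without phenobarbital it passed when knockout control replicate 3, 4 or 5 was left out (adjusted p = 0.0343, 0.0325 and 0.0374, differences -3.32, -3.33 and -3.28), or knockout phenobarbital replicate 4 or 5 (adjusted p = 0.0482 and 0.0415). With phenobarbital it passed without knockout phenobarbital replicate 1 or 2 (-3.67 and -3.65, adjusted p = 0.0377 and 0.0369) or knockout control replicate 6 (adjusted p = 0.0454). With all arrays kept, it also passed there under array weights (-2.95, adjusted p = 0.0135). A variance weight per group, chosen after seeing the data, gave the same (-3.25, adjusted p = 0.0101). The difference without phenobarbital passed in neither of these weighted fits. Without knockout control replicates 2, 6 and 7, the difference without phenobarbital was -1.01 (adjusted p = 0.589), nearly 2 log2 units smaller, and that with phenobarbital passed (-3.25, adjusted p = 0.0161). The other Slco1a1 probe set gave -3.06 (adjusted p = 0.0416) without phenobarbital and -3.04 (adjusted p = 0.0648) with it.

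Slco1a4, another organic anion transporter of this family, was lower in knockout livers under phenobarbital. Its levels were 7.84 to 8.92 (median 8.31) in knockout phenobarbital arrays and 7.36 to 9.34 (median 8.97) in knockout control arrays, against 9.69, 9.56, 9.83 and 9.53 in wild-type phenobarbital arrays and 8.82, 8.55, 9.32, 9.72 and 9.31 in wild-type control arrays. With phenobarbital no knockout array reached a wild-type array, and the log2 difference of -1.31 (SE 0.29, adjusted p = 0.00286), a level 2.48 times lower, passed in all 35 alternative settings. Without phenobarbital the groups overlapped and the difference was -0.41 (SE 0.27, adjusted p = 0.269). The interaction, which subtracts the response of wild-type livers to phenobarbital from that of knockout livers, was -0.90 (SE 0.39), with an unadjusted p of 0.0317 and an adjusted p of 0.417 in limma, so the 2 differences were not shown to be unequal.

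Slc10a1, the sodium-dependent carrier that takes up conjugated bile acids, passed in neither genotype comparison. It spanned 11.90 to 12.69 (median 12.65) in knockout phenobarbital arrays and 11.36 to 12.80 (median 12.61) in knockout control arrays, against 12.86 to 12.90 in wild-type phenobarbital arrays and 12.50 to 12.90 in wild-type control arrays. With phenobarbital all 7 knockout arrays lay below the 4 wild-type arrays, whose SD was only 0.017, and the log2 difference was -0.47 (SE 0.24, adjusted p = 0.182, and 0.0159 without knockout control replicates 2, 6 and 7). This difference also passed with array weights (-0.41, adjusted p = 0.0403) and with a variance weight per group (adjusted p = 0.0481). Without phenobarbital it was -0.39 (SE 0.23, adjusted p = 0.217), and it turned to 0.073 without knockout control replicates 2, 6 and 7, at 12.13, 11.41 and 11.36 the 3 lowest of their group.

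Slco1b2, Slco1a4 and Slco1a1 lie in 1 cluster on chromosome 6 in the order given, and their promoter windows are shown because these neighbouring carriers all had lower means in knockout livers, by different amounts. The windows lie at chr6:141629268-141629567 on the plus strand, chr6:141856171-141856470 on the minus strand and chr6:141946913-141947212 on the minus strand, each written along its own gene with TCF/LEF words in capitals.
Slco1b2: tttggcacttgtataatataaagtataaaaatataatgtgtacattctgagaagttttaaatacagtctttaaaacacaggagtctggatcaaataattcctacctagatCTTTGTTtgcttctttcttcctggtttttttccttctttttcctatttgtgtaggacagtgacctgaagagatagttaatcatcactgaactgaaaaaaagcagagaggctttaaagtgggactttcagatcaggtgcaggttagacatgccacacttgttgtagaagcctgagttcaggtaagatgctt
Slco1a4: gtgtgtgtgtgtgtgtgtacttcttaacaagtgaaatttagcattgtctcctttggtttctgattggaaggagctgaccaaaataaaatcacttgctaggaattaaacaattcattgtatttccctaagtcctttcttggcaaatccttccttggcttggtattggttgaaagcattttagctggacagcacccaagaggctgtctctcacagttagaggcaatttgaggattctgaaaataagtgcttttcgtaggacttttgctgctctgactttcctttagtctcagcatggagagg
Slco1a1: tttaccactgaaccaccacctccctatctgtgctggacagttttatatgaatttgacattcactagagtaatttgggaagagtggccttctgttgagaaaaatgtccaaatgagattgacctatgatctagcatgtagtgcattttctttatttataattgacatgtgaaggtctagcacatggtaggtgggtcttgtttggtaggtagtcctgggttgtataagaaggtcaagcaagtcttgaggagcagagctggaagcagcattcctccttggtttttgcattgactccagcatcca
The word CTTTGTT lies in the Slco1b2 window with its first base at position -140 from the gene start, and the windows of Slco1a4 and Slco1a1 hold none. Of 32851 promoter windows in the table, 16.9% hold at least 1 of these words, as do 2 of the 9 windows of the 10 genes (Slco1b2 and Nr1h4). These matches are letters in a window and not measured sites.

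Other motifs were searched in the same 9 windows on both strands. The HNF4 word CAAAGTCCA, in 0.475% of all windows, was found in that of Cyp8b1, and the Nr5a2 word CAAGGNCA, in 6.71%, in those of Cyp8b1 and Nr0b2. In Cyp8b1 these matches begin at positions -67 and -60 from the gene start and overlap. The nuclear receptor half-site AGGTCA, in 16.3% of all windows, was found in windows of Nr1h4, Slc10a1, Slco1a1 and Slco1b2. The FXR inverted repeat, in 0.00913% of all windows, was found in none of the 9. Whether probes of these related carriers cross-hybridise was not tested.

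Phenobarbital changed none of the 10 genes past the threshold in either genotype. In wild-type livers 0 of 10 passed in limma, where 3.85% of all genes tested did, and 0 of 10 had an unadjusted p under 0.05, where 15.5% did. The spread behind these tests is pooled over all 4 groups, and knockout arrays spread more widely for genes such as Slco1a1, Slco1b2 and Cyp27a1. With only the wild-type groups fitted, 1 of 10 passed, where 6.72% of all genes did. Adjusted p then fell from 0.758 to 0.0965 for Slc10a1 and from 0.986 to 0.307 for Slco1a1. The 0 of 10 thus does not show a weaker response than in other genes. In knockout livers 0 of 10 passed, where 2.05% of all genes tested did, and 0 of 10 had an unadjusted p under 0.05, where 14.7% did. The log2 differences ran from -0.51 (Cyp7b1, 95% confidence interval -1.26 to 0.24) to 0.51 (Slco1a4, -0.13 to 1.15) in wild-type livers. In knockout livers they ran from -0.47 (Slco1a1, -2.60 to 1.66) to 0.31 (Slco1b2, -0.035 to 0.66). The widest wild-type interval was that of Slco1a1 (-2.80 to 2.54), and its width came from the pooled spread. The SD of Slco1a1 was 2.64 with and 2.52 without phenobarbital in knockout livers. In wild-type livers it was only 0.066 and 0.12, so this interval does not describe the spread of the wild-type arrays. With the pooled spread, intervals reach changes of more than 2-fold for Cyp7b1, Slco1a1 and Slco1a4 in wild type and for Slco1a1 in knockout. A miss of the threshold thus does not show that levels were equal.

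Single alternatives moved these counts from 0 to 1. In wild-type livers Cyp7b1 passed as lower when only the compared groups were fitted (-0.51, adjusted p = 0.0301), and 3 of 4 phenobarbital arrays lay below all control arrays. In knockout livers Cyp8b1 passed as lower without knockout control replicates 2, 6 and 7 (-0.92, adjusted p = 0.00469). That setting left arrays out of the control group alone, so the groups were not treated alike. Knockout phenobarbital replicates 4, 5 and 7, the lowest of their group in Cyp8b1 at 10.33, 9.76 and 10.37, stayed in. For the interaction, 0 of 10 passed in limma, where 0.875% of all genes tested did. Only Slco1a4 had an unadjusted p under 0.05, a level reached by 10.3% of all genes. The comparisons share groups, so their differences are not independent of each other.

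**Figure D3:**
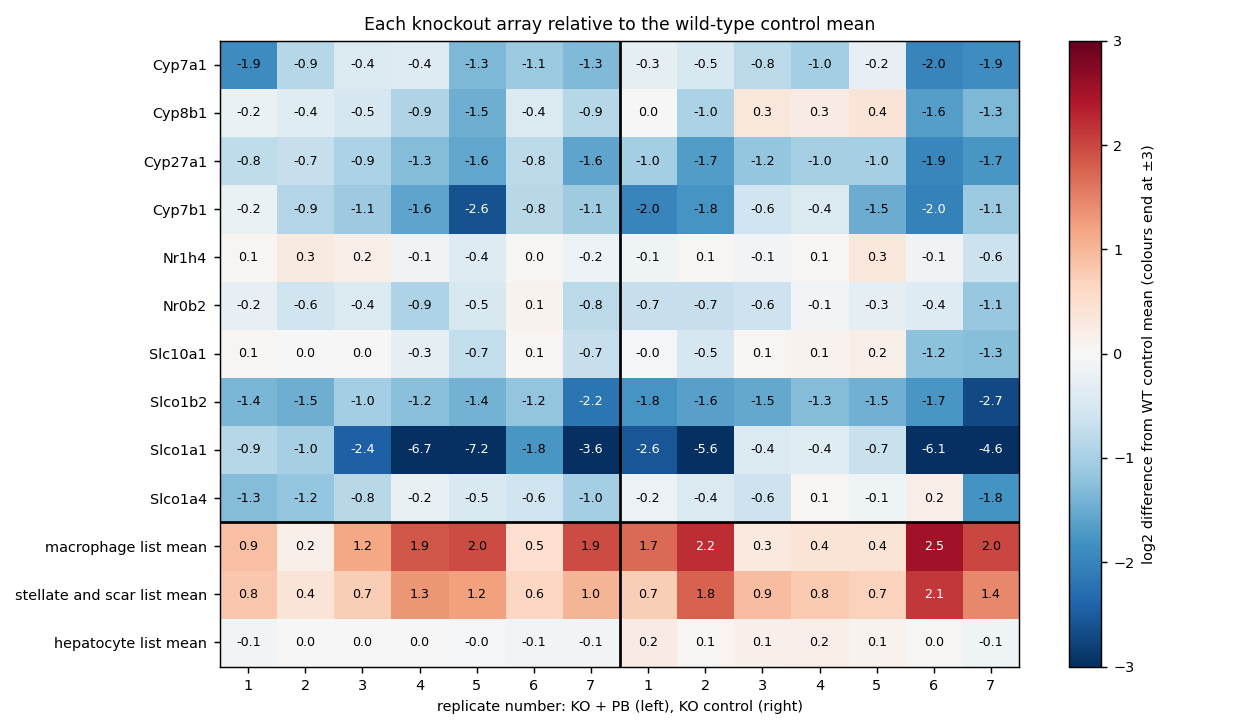
Log2 difference of each of the 10 genes, and of the macrophage, stellate and scar, and hepatocyte marker means, from the wild-type control mean, as a colour scale with 1 row per gene or list and 1 column per knockout array (phenobarbital replicates 1 to 7, then control replicates 1 to 7). The 3 arrays lowest in Slco1a1 in each group have macrophage means of 8.69 or more.

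The lowest values fell on a few knockout livers. Knockout control replicates 6 and 7 each held the lowest value of their group for 5 of the 10 genes, so that these 2 arrays gave every minimum. Knockout phenobarbital replicate 5 held the lowest value for 5, replicates 1 and 7 for 2 each and replicate 4 for 1. Averaged over the 10 genes, the difference from the wild-type control mean was -1.82, -1.70 and -1.37 in knockout control replicates 7, 6 and 2, and from -0.86 to -0.37 in the other 4. In knockout phenobarbital livers it was -1.77, -1.37 and -1.34 in replicates 5, 4 and 7 and from -0.75 to -0.65 in the other 4. Slco1a1 carried much of this: over the other 9 genes the averages were -1.17, -0.77 and -1.08 in knockout phenobarbital replicates 5, 4 and 7 and from -0.65 to -0.52 in the other 4. They were -1.51, -1.21 and -0.90 in knockout control replicates 7, 6 and 2 and from -0.67 to -0.37 in the other 4. Knockout phenobarbital replicate 4 also held the highest Cyp7a1 (10.49) and Slco1a4 (8.92) of its group. Knockout arrays also varied more over all genes, with a median SD of 0.136 with and 0.160 without phenobarbital, against 0.0937 and 0.122 in wild type.

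Macrophage markers were highest on the arrays with the lowest averages of the 10 genes. Of 12 macrophage markers, 7 were higher in knockout livers with phenobarbital and 8 without, and 0 were lower. Over all genes tested, 11.9% were higher with phenobarbital and 14.8% without. Their mean log2 level was 6.98 to 8.78 in knockout phenobarbital arrays and 7.12 to 9.33 in knockout control arrays, against 6.47 to 6.67 in wild-type phenobarbital arrays and 6.57 to 7.06 in wild-type control arrays. It was 8.69, 8.78 and 8.76 in knockout phenobarbital replicates 4, 5 and 7, and 9.03, 9.33 and 8.81 in knockout control replicates 2, 6 and 7, the arrays lowest in Slco1a1. Knockout control replicate 1, at 8.51, had the next highest macrophage mean and the next lowest Slco1a1 of its group.

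Stellate cell and scar markers were higher for 5 of 10 with phenobarbital and 7 of 10 without, with means of 7.40 to 8.35 in knockout phenobarbital arrays and 7.71 to 9.14 in knockout control arrays, against 6.87 to 7.14 over all wild-type arrays. In each knockout group the 3 arrays with the lowest averages of the 10 genes also had the 3 highest stellate and scar means, but not the 3 highest endothelial means: that of knockout control replicate 7, at 7.14, was the lowest of its group. Endothelial markers were higher for 5 of 8 with phenobarbital and 6 of 8 without. Cholangiocyte markers had 1 of 5 tested higher and 1 lower with phenobarbital, and 2 higher without. Of 3 neutrophil markers tested, 1 was higher with phenobarbital and 2 without, and of 4 lymphocyte markers 0 and 1. Beside these counts, 11.9% of all genes tested were higher in knockout livers with phenobarbital and 14.8% without, and 8.12% and 10.1% were lower. No macrophage or stellate marker lay below the 40th percentile on every array of a group. The part of these cells in the differences of the 10 genes was not tested.

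Over all 23 arrays, the genes whose levels followed each of the 10 most closely are given as a description, with arrays of 4 groups and a genotype difference in common. Slc10a1 was followed most closely by Macrod1 (Pearson r = 0.972), Aldh9a1 (0.946) and Lin7a (0.94). Slco1b2 was followed by Agmo (0.968), Adh4 (0.956) and Pgap1 (0.94), Slco1a1 by Sdr9c7 (0.966), Mup3 (0.956) and Sult2a8 (0.945), and Cyp27a1 by Coq10a (0.965), Adtrp (0.96) and Aldh2 (0.953). For Cyp8b1 these were Retsat (0.938), Sdha (0.933) and Mcu (0.928), and for Cyp7b1 Ugt2b38 (0.931), Elovl3 (0.931) and Scp2 (0.887). The values were lower for Nr0b2 with Crygf (0.866), Mtx3 (0.801) and Plekhf1 (0.794), Slco1a4 with Ugp2 (0.863), Alad (0.834) and Cdc42ep5 (0.812), Nr1h4 with Pex16 (0.86), Rasl10b (0.847) and 2610507B11Rik (0.842), and Cyp7a1 with Pcyt2 (0.803), Col22a1 (0.80) and Hpd (0.792). Among the 10 genes themselves the closest were Cyp27a1 with Slco1b2 (0.92), Cyp8b1 with Slc10a1 (0.889) and Cyp8b1 with Slco1a1 (0.888), and Slco1a4 was near Cyp7b1 least (0.151).

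**Figure D4:**
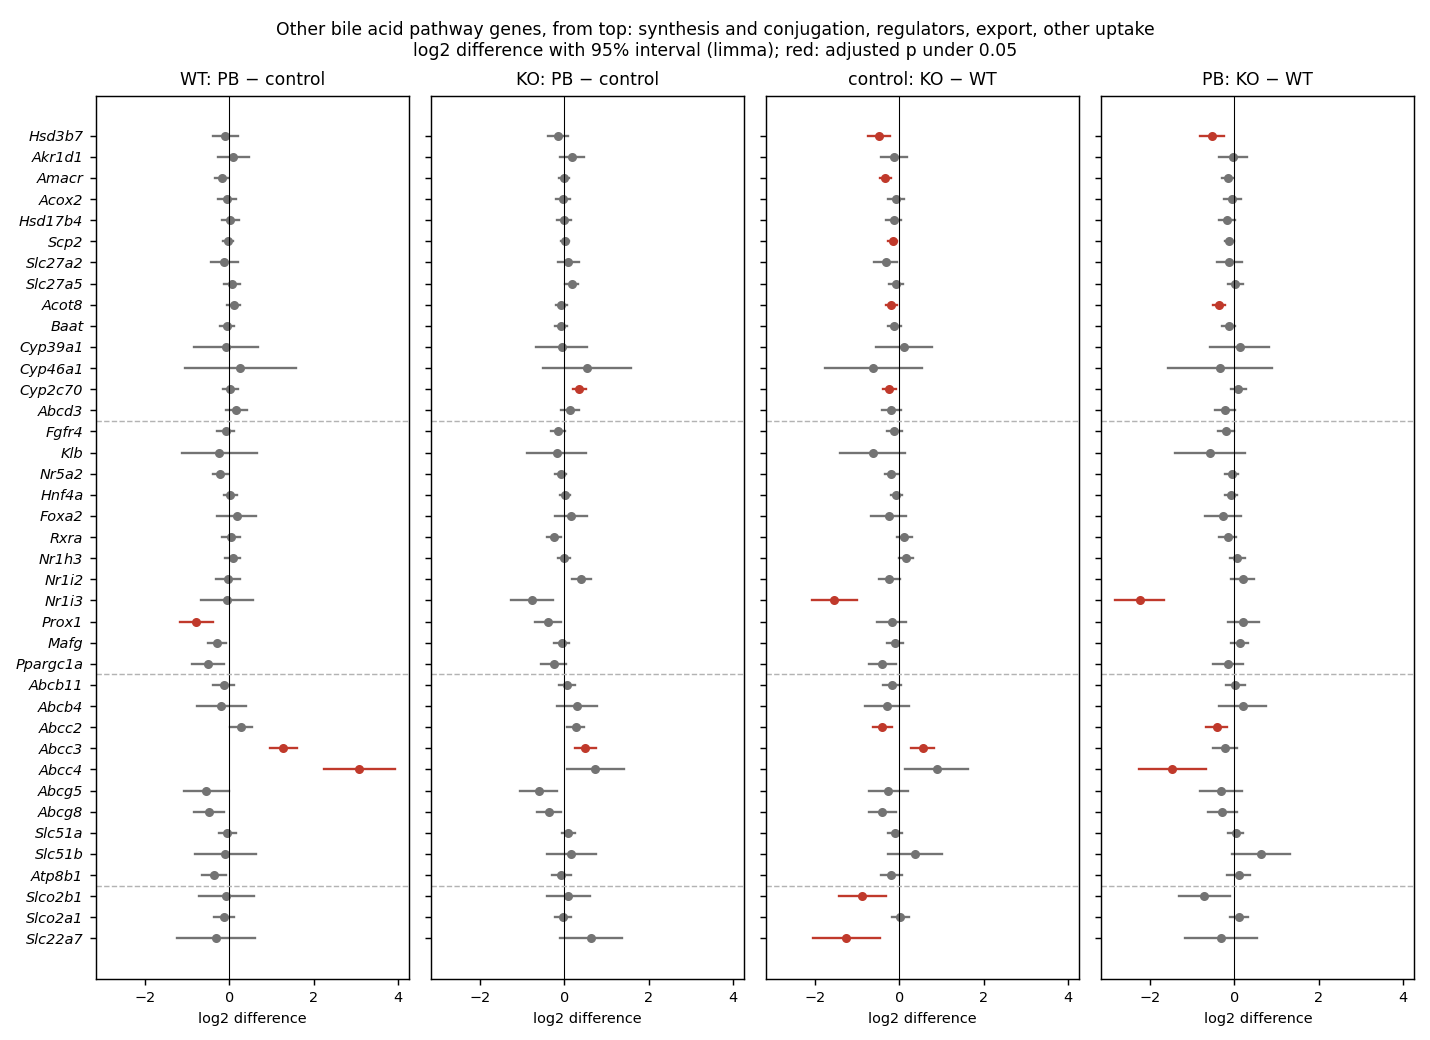
Log2 difference with its 95% confidence interval from limma for every other bile acid gene tested, genes down the page by list and 1 panel for each of the 4 pairwise comparisons (KO knockout, WT wild type, PB phenobarbital), red where the adjusted p was under 0.05. Abcc4 and Abcc3 are higher with phenobarbital in wild type, and Nr1i3 is lower in knockout livers on both diets.

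Of the other enzymes of bile acid synthesis and conjugation, 14 of 15 listed were tested. Over all genes tested, 8.12% were lower in knockout livers with phenobarbital and 10.1% without it. For phenobarbital, 2.05% of all genes passed in knockout livers and 3.85% in wild-type livers. With phenobarbital, 2 were lower in knockout than in wild-type livers: Hsd3b7, which acts early in both pathways (12.07 ± 0.23 in 7 knockout and 12.60 ± 0.034 in 4 wild-type arrays, log2 difference -0.53, adjusted p = 0.00854), and Acot8, a peroxisomal thioesterase (-0.36, adjusted p = 0.0012). Without phenobarbital, 5 were lower: Hsd3b7 (-0.48, adjusted p = 0.00888), Amacr, a racemase of side-chain oxidation (-0.34, adjusted p = 0.000664), Cyp2c70, which makes muricholic acids in mice (-0.24, adjusted p = 0.0303), Acot8 (-0.19, adjusted p = 0.0443) and Scp2, a peroxisomal thiolase (-0.16, adjusted p = 0.027). Without knockout control replicates 2, 6 and 7, the second set lost Hsd3b7 (-0.25, adjusted p = 0.125), Acot8 (-0.11, adjusted p = 0.34) and Scp2 (-0.12, adjusted p = 0.198). The Acot8 call without phenobarbital held in 18 of 35 alternative settings, that of Scp2 in 27 and that of Cyp2c70 in 30. Cyp2c70 was higher with phenobarbital in knockout livers, at 13.80 ± 0.049 against 13.44 ± 0.21 without it (n = 7 each, log2 difference 0.36, adjusted p = 0.00775). This call held in 34 of 35 alternative settings and ended with only the compared groups fitted (adjusted p = 0.0532). None of the 14 passed in wild-type livers (1 at an unadjusted p under 0.05).

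Of 14 other regulators, 12 were tested and 2 passed anywhere. Between genotypes 1 of the 12 passed with phenobarbital and 1 without, where 20.0% and 25.0% of all genes tested did. For phenobarbital in wild-type livers 1 passed, where 3.85% of all genes tested did. Nr1i3, the gene of CAR, was 6.42 ± 0.25 in knockout phenobarbital arrays (n = 7) and 8.66 ± 0.10 in wild-type phenobarbital arrays (n = 4), a log2 difference of -2.24 (adjusted p = 7.19e-06). Without phenobarbital it was 7.19 ± 0.79 in knockout (n = 7) and 8.73 ± 0.13 in wild-type livers (n = 5), a difference of -1.54 (adjusted p = 0.000242). Neither pair overlapped, and both calls held in all 35 alternative settings. Prox1, a co-repressor of Cyp7a1 transcription, was lower with phenobarbital in wild-type livers (7.73 to 8.16 in 4 phenobarbital arrays and 8.26 to 9.20 in 5 control arrays, log2 difference -0.78, adjusted p = 0.0204). Its call ended without wild-type control replicate 2 (adjusted p = 0.0663) or 3 (0.0606), without wild-type phenobarbital replicate 3 (0.0622) or 4 (0.0871), and with the mean of its probe sets (-0.45, adjusted p = 0.149).

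Of 10 export genes, all were tested and 3 passed anywhere, all of them efflux pumps. Between genotypes 2 passed with phenobarbital and 2 without, where 20.0% and 25.0% of all genes tested did. For phenobarbital 2 passed in wild-type livers (3.85% of all genes) and 1 in knockout livers (2.05%). For the interaction 1 passed (0.875% of all genes). Abcc4, a basolateral pump, was 7.89 ± 0.085 in wild-type phenobarbital arrays (n = 4) and 4.81 ± 0.32 in wild-type control arrays (n = 5), a log2 difference of 3.08 (adjusted p = 4.43e-05). In wild-type control arrays Abcc4, at 4.44 to 5.17, was near the arrays' 40th percentile (4.52 to 4.60), where robust multi-array averaging shrinks differences. It was 6.42 ± 0.94 in knockout phenobarbital and 5.69 ± 0.60 in knockout control arrays (n = 7 each), and with phenobarbital it was lower in knockout than in wild type by a log2 difference of -1.47 (adjusted p = 0.00958). Its interaction of -2.35 passed (SE 0.52, adjusted p = 0.0285), a call that held in 25 of 34 alternative settings. It ended without any 1 of wild-type phenobarbital replicates 1 to 4 (adjusted p = 0.0611, 0.0621, 0.0687 and 0.0556), wild-type control replicates 2 and 4 (0.0606 and 0.0526) or knockout phenobarbital replicate 6 (0.051), and without knockout control replicates 2, 6 and 7 (-1.94, adjusted p = 0.0603). With all arrays kept, the call ended with the replicate number as a block (-2.45, adjusted p = 0.0673).

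Abcc3, another basolateral pump, was higher with phenobarbital in wild-type livers (10.91 ± 0.054 in 4 and 9.63 ± 0.41 in 5 arrays, log2 difference 1.28, adjusted p = 1.09e-05) and in knockout livers (10.69 ± 0.11 and 10.18 ± 0.23, n = 7 each, 0.50, adjusted p = 0.0299). The knockout call ended without any 1 of knockout phenobarbital replicates 1, 3 and 6 (adjusted p = 0.0518, 0.0653 and 0.0578) or knockout control replicates 2 and 3 (0.0537 and 0.053). It also ended with a variance weight per group, chosen after seeing the data (adjusted p = 0.0776). Without phenobarbital Abcc3 was higher in knockout than in wild-type livers (0.56, adjusted p = 0.0048). Abcc2, the canalicular pump of organic anions, was lower in knockout livers both with (-0.42, adjusted p = 0.0159) and without phenobarbital (-0.40, adjusted p = 0.0114). Abcb11, the bile salt export pump, was among the 7 export genes that passed nowhere.

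Of 6 other uptake carriers, 3 were tested, and 2 of them were lower in knockout livers without phenobarbital, as were 10.1% of all genes tested. Slco2b1, another organic anion transporting polypeptide, was 9.43 ± 0.75 in knockout (n = 7) and 10.30 ± 0.094 in wild-type control arrays (n = 5), a log2 difference of -0.87 (adjusted p = 0.0231). Its call ended without knockout control replicate 6 (-0.72, adjusted p = 0.0515) and without replicates 2, 6 and 7 (-0.29, adjusted p = 0.329). With all arrays kept, it ended with array weights (-0.49, adjusted p = 0.103), the replicate number as a block (-0.64, adjusted p = 0.0795) and only the compared groups fitted (adjusted p = 0.0713). Slc22a7, an organic anion transporter, had a difference of -1.25 (adjusted p = 0.0222), and its call ended without wild-type control replicate 2 (adjusted p = 0.0563) or 5 (0.0519) and without knockout control replicates 2, 6 and 7 (-0.60, adjusted p = 0.307). The Slc22a7 call also ended with array weights (-0.85, adjusted p = 0.0803) and with the replicate number as a block (-1.07, adjusted p = 0.0951). With phenobarbital 0 of the 3 passed in limma, where 20.0% of all genes tested did (1 at an unadjusted p under 0.05, where 34.3% did).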

How the data were processed

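Liver RNA of 23 samples was measured on Affymetrix 3' expression arrays, 1 array per sample, and samples were grouped by genotype and treatment from their labels. The authors deposited 1 log2 signal for each probe set and array, made by robust multi-array averaging (RMA) with the R package affy, per the submitters' processing notes. Versions, and which arrays were normalised together, are not given in the sources used here. RMA shrinks differences of dim probe sets, and medians over all 45037 probe sets ran from 5.09 to 5.14 per array. Gene symbols came from GEO's platform annotation, updated through the Entrez identifier in the GRCm38.p6 RefSeq table: 34945 probe sets had 1 gene, 932 had several and 9160 had none.

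Each of 18193 genes was represented by its single-gene probe set of highest mean, and tested if it exceeded an array's 40th percentile in at least 4 arrays, which kept 13826. All 23 arrays entered 1 limma 3.58.1 model, run in R 4.3.3. It estimates a mean for each of the 4 groups and 1 spread per gene pooled over them. Tests were two-sided, with Benjamini-Hochberg adjustment over all genes tested and calls at an adjusted p under 0.05. Exact permutation tests of pair relations used scipy 1.17.1. The fit was tested on simulated data in which all 4 groups share 1 spread per gene. That test does not cover the wider spread of knockout livers. The number of arrays limits the precision. The 10 genes, the gene and marker lists and the rule for named genes were chosen with earlier results of these data known. Named are the 10 genes, pathway genes that passed in any comparison (up to 5 per list and comparison), and the 3 genes most correlated with each of the 10. Any other gene named was chosen after its values were seen. Ch25h, Slco1a5 and Slco1a6 did not pass the filter, Gpbar1 had no probe set of its own, and these and some other listed genes are not analysed here. Alternatives covered the filter, normalisation, probe set choice, variance prior, weights on arrays, the replicate block, a fit of the 2 groups alone, each array left out in turn, and knockout control replicates 2, 6 and 7 left out. A fit with 1 variance weight per group was chosen after seeing the data.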

Additional observations from a re-analysis of the deposited data

Results flagged for a closer look

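Among 40 combinations of group and gene checked for a single array far from the rest of its group, 5 stood out, and chance sets apart about 1 in 20 groups. Nr1h4 was 9.88 in wild-type phenobarbital replicate 4, where the nearest of the other 3 arrays was at 10.18. Slco1b2 was lowest in replicate 7 of both knockout groups, at 10.81 with phenobarbital (nearest 11.53) and 10.30 without it (nearest 11.23). Slco1a4 was 7.36 in knockout control replicate 7, with the nearest at 8.53. Slco1a1 was 11.80 in wild-type phenobarbital replicate 2 (nearest 11.92), within a group whose whole range was 0.15 on the log2 scale.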

How the results depend on the processing

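Over the 10 genes and 5 comparisons, 1643 of 1740 alternative values kept their direction and their side of the threshold, 33 lost a call, 26 gained one and 38 changed sign. Called in all 35 alternatives were Cyp27a1, Cyp7b1 and Slco1b2 without phenobarbital and Cyp27a1, Slco1b2 and Slco1a4 with it. With each array left out in turn, genes called among the 10 were 0 to 0 for phenobarbital in wild type, 0 to 0 in knockout, 3 to 6 between genotypes without phenobarbital (3 without knockout control replicate 6 or 7 or wild-type control replicate 2 or 3), 3 to 4 with it and 0 to 0 for the interaction. Over all genes the counts were 315 to 664 (main 532) and 157 to 408 (main 284) for phenobarbital in wild type and knockout, 2667 to 3903 (main 3453) and 1798 to 3287 (main 2772) between genotypes without and with it, and 63 to 146 (main 121) for the interaction. The lowest of these came without wild-type phenobarbital replicate 3 for wild type, genotype with phenobarbital and interaction, and without knockout phenobarbital replicate 1 for knockout. The cause of these changes was not tested.

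Array weights gave 1503, 461, 4574 and 323 genes for phenobarbital in wild type, in knockout, genotype with phenobarbital and the interaction, and 3, 7 and 1 of the 10 genes for genotype without phenobarbital, with it and the interaction (Slco1a4, adjusted p = 0.0384), where 17.9%, 33.1% and 2.34% of all genes were called. Fitting only the compared groups gave 929, 100 and 2078 genes for phenobarbital in wild type, in knockout and genotype without phenobarbital, and 1, 3 and 5 of the 10 for phenobarbital in wild type, genotype without and genotype with phenobarbital, where 6.72%, 15.0% and 25.1% of all genes were called. Without knockout control replicates 2, 6 and 7 there were 810, 786, 1535 and 273 genes for phenobarbital in wild type, in knockout, genotype without phenobarbital and the interaction, and 1, 3 and 7 of the 10 for phenobarbital in knockout, genotype without and with phenobarbital, where 5.68%, 11.1% and 29.1% of all genes were called. A variance weight per group gave 1241, 126 and 4576 genes for phenobarbital in wild type, in knockout and genotype with phenobarbital, and 7 of the 10 for the last, where 33.1% of all genes were called.

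The replicate numbers were not shown to pair the samples, and pairing was not excluded. Deviations of same-numbered arrays correlated from -0.695 to 0.628 between the knockout groups, with 2 of 7 over 0.1. Between genotypes without phenobarbital they ran from -0.083 to 0.148, with 3 of 5 over 0.1 and 2 of 5 closest to their own number. No comparison had every array closest to its own number. With the replicate block, 1967 and 1606 genes were called between genotypes without and with phenobarbital, and the 10 genes gave 1 call for phenobarbital in knockout (Slco1b2, 0.31, adjusted p = 0.0365) where 1.49% of all genes were called, and 3 for genotype without phenobarbital, where 14.2% were. Cyp7a1 (-0.73, adjusted p = 0.13) and Nr0b2 (-0.54, adjusted p = 0.0692) lost that call.

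Sign changes touched no called value. Without knockout control replicates 2, 6 and 7, and with every knockout phenobarbital array kept, the phenobarbital difference in knockout became -0.056 for Cyp27a1, -0.056 for Cyp7b1, -0.062 for Nr1h4, -0.068 for Nr0b2 and -0.29 for Slc10a1 (-0.079 with array weights). The genotype difference without phenobarbital became 0.24 for Cyp8b1 (0.0057 with array weights), 0.044 for Nr1h4 (0.0041 with array weights) and 0.073 for Slc10a1, and the interaction of Cyp7a1 became -0.23 (-0.012 with array weights). With each array left out, phenobarbital in wild type ran from -0.39 to 0.037 for Cyp7a1 and -0.086 to 0.042 for Cyp8b1. In knockout it ran from -0.26 to 0.050 for Cyp7a1, -0.00041 to 0.40 for Cyp7b1, -0.038 to 0.13 for Nr1h4, -0.030 to 0.15 for Nr0b2 and -1.001 to 0.17 for Slco1a1. The genotype difference of Nr1h4 without phenobarbital ran from -0.14 to 0.019, and the interaction from -0.13 to 0.31 for Cyp7a1, -0.23 to 0.014 for Slc10a1 and -0.87 to 0.30 for Slco1a1.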
